A study of Mus musculus with 38 samples.

Results

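The 8 genes described here encode brakes and adaptors of NF-kB signalling: Tnfaip3 (the protein A20), Cyld, Tnip1 and Tnip2 (the A20-binding proteins ABIN-1 and ABIN-2), and the TRAF adaptors Traf1, Traf2, Traf3 and Traf6. They were chosen by gene symbol, matched to the Entrez Gene numbers of a deposited table of read counts, and all 8 were found among its 24028 genes. All 8 also passed the filter on low counts, which 13650 genes passed. The data are RNA-seq libraries of mouse CD4+ T cells, either naive or after 24 h of culture, from mice of 5 genotypes.

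NF-kB is a family of transcription factors held inactive in the cytoplasm by inhibitor proteins until receptors trigger the kinases that remove them. In T cells the antigen receptor, with the costimulatory receptor CD28, activates those kinases, and TNF receptor family members reach them through TRAF adaptors. Ubiquitin chains hold the signalling complexes together, and A20 and CYLD limit the signal by editing or removing such chains. A20 is itself known as an NF-kB target gene.

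The tested genotypes, as the labels name them, were CD28-/-, a germline knockout of the costimulatory receptor CD28; T1792delta/delta, in which a Cre driven by Cd4 removes the floxed miR-17∼92 cluster of microRNAs from T cells; T1792tg/tg, whose T cells carry extra copies of the cluster, from a Rosa26 transgene that the Cre unlocks by cutting out a stop cassette; and rescue, which combines the CD28-/- background with that Cre and transgene. Their reference was wt. Each genotype gave 4 libraries at 24 h and 4 naive libraries, except rescue with 3 and 3, which makes 38 libraries in 10 groups. Naive CD4+ T cells came from pooled spleen and lymph nodes, 1 mouse (male or female) at a time. The 24 h cells, of all genotypes including CD28-/-, had been stimulated by plate-bound antibodies to CD3 (0.5 µg/ml) and to CD28 (0.2 µg/ml), with interleukin-2 added (50 U/ml). No group carried the Cre alone and no group was cultured without stimulation, so Cre and the cluster, and stimulation and culture, cannot be told apart. Age and the number of founder lines are not given in the labels.

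Libraries held 19427291 to 28020721 counts. Reads on Mir17 itself, the engineered microRNA, were 0 in all 4 libraries of T1792delta/delta at 24 h, against 0.113 to 0.156 CPM (counts per 1000000 counts of the library) in wt, and in naive cells averaged 6.55 ± 0.90 CPM in T1792tg/tg (SD, n = 4) and 6.88 ± 1.84 CPM in rescue (SD, n = 3), against 0.334 ± 0.097 CPM in wt (SD, n = 4). Naive T1792delta/delta libraries had 0 to 0.152 CPM. At 24 h the transgenic levels were far lower than in naive cells, at 0.624 ± 0.231 CPM in T1792tg/tg (SD, n = 4) and 0.571 ± 0.040 CPM in rescue (SD, n = 3). The 24 h wt libraries averaged 0.131 ± 0.019 CPM (SD, n = 4). These are reads on the locus in polyA RNA, and mature microRNA was not measured. The host transcript of the cluster, Mir17hg, was not lower with the deletion: at 24 h it averaged 172 ± 12 CPM in T1792delta/delta and 20.7 ± 2.4 CPM in wt, and in naive cells 54.4 ± 7.9 CPM and 51.6 ± 7.3 CPM (SD, n = 4 each). The gene-level count of Cd28 did not check the CD28-/- label, since it averaged 737 ± 135 CPM in naive cells labelled CD28-/- and 825 ± 87 CPM in naive wt cells, and 539 ± 40 CPM and 342 ± 36 CPM at 24 h (SD, n = 4 each); where the deletion lies in the gene is not given in the sources used here. The genotype is therefore used as labelled, and the same holds for rescue, which carries that allele. Il2, a target of costimulation, had 6.43 to 7.51 CPM in the 4 CD28-/- libraries at 24 h, against 125 to 183 CPM in wt. Xist was expressed in 4 of 4 CD28-/-, 2 of 4 T1792delta/delta, 1 of 4 T1792tg/tg, 3 of 3 rescue and 3 of 4 wt libraries in each state, so the mix of sexes differed between genotypes. In bulk RNA, fewer cells of a type and less RNA per cell cannot be told apart.

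The microRNAs of the cluster are shown first because the genotypes change them and because their seeds, bases 2 to 8, decide which transcripts they can pair with. The mature sequences are those of RefSeq (GRCm38.p6), read 5′ to 3′ with the seed in capitals, from mouse chromosome 14.
mmu-miR-17-5p: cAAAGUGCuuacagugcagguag
mmu-miR-20a-5p: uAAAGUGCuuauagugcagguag
mmu-miR-18a-5p: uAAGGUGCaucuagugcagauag
mmu-miR-19a-3p: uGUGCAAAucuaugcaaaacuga
mmu-miR-19b-3p: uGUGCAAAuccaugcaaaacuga
mmu-miR-92a-3p: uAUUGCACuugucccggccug
miR-17 and miR-20a share a seed, miR-19a and miR-19b share another, and miR-18a and miR-92a have their own, which gives 4 families.

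The longest annotated 3′ untranslated region of 7 of the 8 genes held at least 1 match to the complement of a seed (GENCODE M21, GRCm38). There were 11 such 7-base matches, and 5 of them were followed by an A, the 8-base form. The miR-19 match, TTTGCAC, was present in 5 genes, and 4 of them had the 8-base form. Of all 20829 genes with a region searched, of any length, 11.6% hold this 7-base match. The share of all genes with a match to any of the 4 families was not computed. The sites of the 4 genes that the comparisons below turn on are printed 5′ to 3′ on the gene's strand, with the match and any following A in capitals.
Tnfaip3, miR-19 match at chr10:19001017-19001023, minus strand: agtttgtgaaaTTTGCACAgttgtctttca
Cyld, miR-17/20a match at chr8:88748487-88748493, plus strand: tatttttaaagGCACTTTActccttggttt
Cyld, miR-17/20a match at chr8:88749032-88749038, plus strand: aagttggggtgGCACTTTgtgagtgaggag
Cyld, miR-19 match at chr8:88747199-88747205, plus strand: ataagaagcatTTTGCACtctaggaagtat
Tnip1, miR-19 match at chr11:54910820-54910826, minus strand: ctaggcagccgTTTGCACAaatcttggaca
Traf3, miR-19 match at chr12:111266110-111266116, plus strand: tctatcttctaTTTGCACAcccatagcagc
Cyld was the gene with 2 matches to the seed of miR-17 and miR-20a, in a region of 4932 bases; 36.2% of 1049 genes whose region is of like length hold at least 1. A miR-19 match is held by 32.2% of the genes of a length like that of Cyld, 8.51% of those like Tnip1 (752 bases), 14.3% of those like Tnfaip3 (1821 bases) and 32.7% of those like Traf3 (5093 bases). Its 8-base form is held by 2.88% of those like Tnip1, 6.11% of those like Tnfaip3 and 13.4% of those like Traf3. The 8-base form of the miR-17/20a match is held by 13.3% of those like Cyld. Traf2 had an 8-base miR-19 match as well, Tnfaip3, Tnip2 and Traf1 each had a 7-base miR-18a match, Traf3 had a 7-base miR-92a match, and Traf6 had none in 4170 bases. A match is a description of the sequence and says nothing of pairing in these cells.

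**Figure D1:**
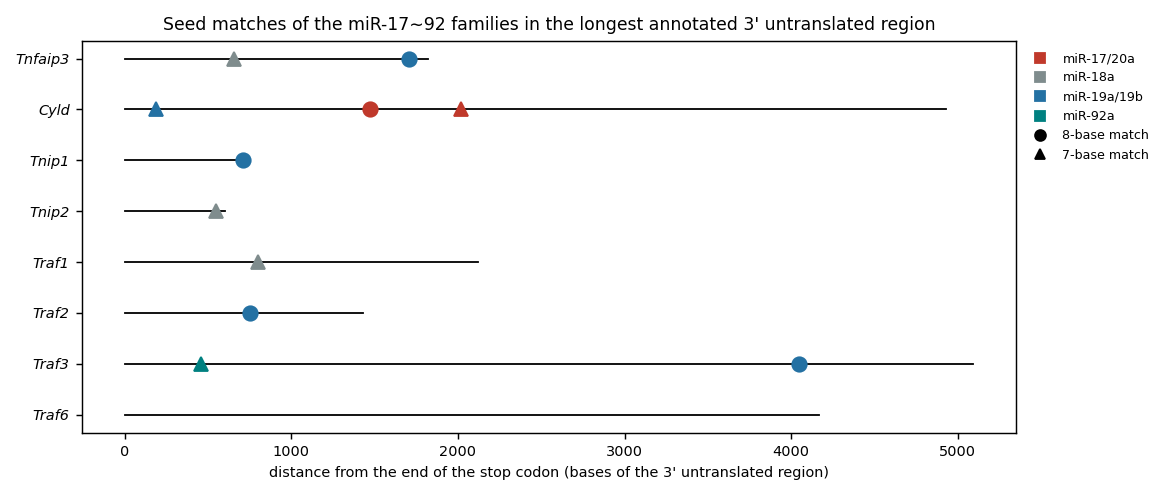
Position of the 7-base and 8-base seed matches of the 4 microRNA families in the 3′ untranslated regions searched, 1 line per gene, as bases from the end of the stop codon (lines show the region's length). Circles are 8-base and triangles 7-base matches; Traf6 shows none and Cyld shows 3.

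The promoters are shown for the genes in which a match to the kappa-B consensus, the binding motif of NF-kB, was found on either strand between 250 bases before and 50 after an annotated start (RefSeq, GRCm38.p6); the matched bases are in capitals, on the gene's strand.
Tnfaip3, 125 bases before the start, chr10:19015526-19015535, minus strand: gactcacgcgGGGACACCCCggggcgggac
Tnfaip3, 12 bases before the start, chr10:19015413-19015422, minus strand: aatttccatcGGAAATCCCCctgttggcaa
Cyld, 155 bases before the start, chr8:88696873-88696882, plus strand: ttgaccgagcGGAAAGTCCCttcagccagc
Tnip1, 58 bases before the start, chr11:54962987-54962998, minus strand: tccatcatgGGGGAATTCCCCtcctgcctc
Traf3, 10 bases before the start, chr12:111166360-111166369, plus strand: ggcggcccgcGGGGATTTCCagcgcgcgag
These starts are those of the promoter table and need not be the end of the gene as annotated: the start used lies 150 bases inside the annotated gene for Cyld (chr8:88697028), 49 for Traf3 (chr12:111166370) and 16 for Tnip1 (chr11:54962940), so the match of Cyld spans the gene's first base and that of Traf3 lies within the gene. The stretch in Tnip1 holds 3 overlapping matches. Of the 9 promoters listed for the 8 genes, 4 held a match, while 8.46% of all 32851 promoters did; the pattern searched was written after these promoters had been read, so the shares are no comparison. The genes without a match were Tnip2, Traf1, Traf2 and Traf6, and this says only that those letters are not in the window.

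Tnfaip3 encodes A20, which both removes and attaches ubiquitin and restrains NF-kB (Entrez Gene 21929, chr10:19000910-19015410, GRCm38.p6). It was by far the most abundant of the 8 transcripts in naive cells and fell in every genotype at 24 h. Per kilobase of gene length it averaged 13.5 ± 1.6 CPM per kb in wt cells at 24 h and 1015 ± 118 CPM per kb in naive wt cells (SD, n = 4 each), which ranks it 4886th and 51st of the 13650 genes. No other member averaged above 53.2 CPM per kb in naive wt cells, the level of Tnip1. At 24 h the highest of the 8 per kilobase in wt was Traf1, with 50.1 ± 1.4 CPM per kb, and Tnfaip3 was the sixth.

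In wt cells Tnfaip3 had 51.5, 64.2, 65.3 and 67.4 CPM at 24 h, against 4263, 5207, 5046 and 4142 CPM when naive. In cells labelled CD28-/- the values were 58.4, 61.2, 56.3 and 52.3 CPM at 24 h, against 3146, 3996, 4188 and 3314 CPM when naive. No library at 24 h came near any naive one. The drop had a log2 fold change of -6.00 in CD28-/-, -6.01 in T1792delta/delta, -5.91 in T1792tg/tg, -5.81 in rescue and -6.23 in wt, with standard errors (SE) of 0.15 to 0.17. In wt this is a level 75.1-fold lower at 24 h, with an adjusted p of 1.57e-28 by edgeR's quasi-likelihood test with Benjamini-Hochberg adjustment, which is the test behind every adjusted p given here unless another is named. Adjusted p below 0.05 is the threshold for saying that a gene rose, fell or changed. The 4 tested differences of this drop between genotypes did not pass it: CD28-/- minus wt was 0.23 (95% interval -0.11 to 0.56), T1792delta/delta minus wt 0.22 (-0.11 to 0.55), T1792tg/tg minus wt 0.32 (-0.01 to 0.66) and rescue minus CD28-/- 0.19 (-0.17 to 0.56).

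**Figure D2:**
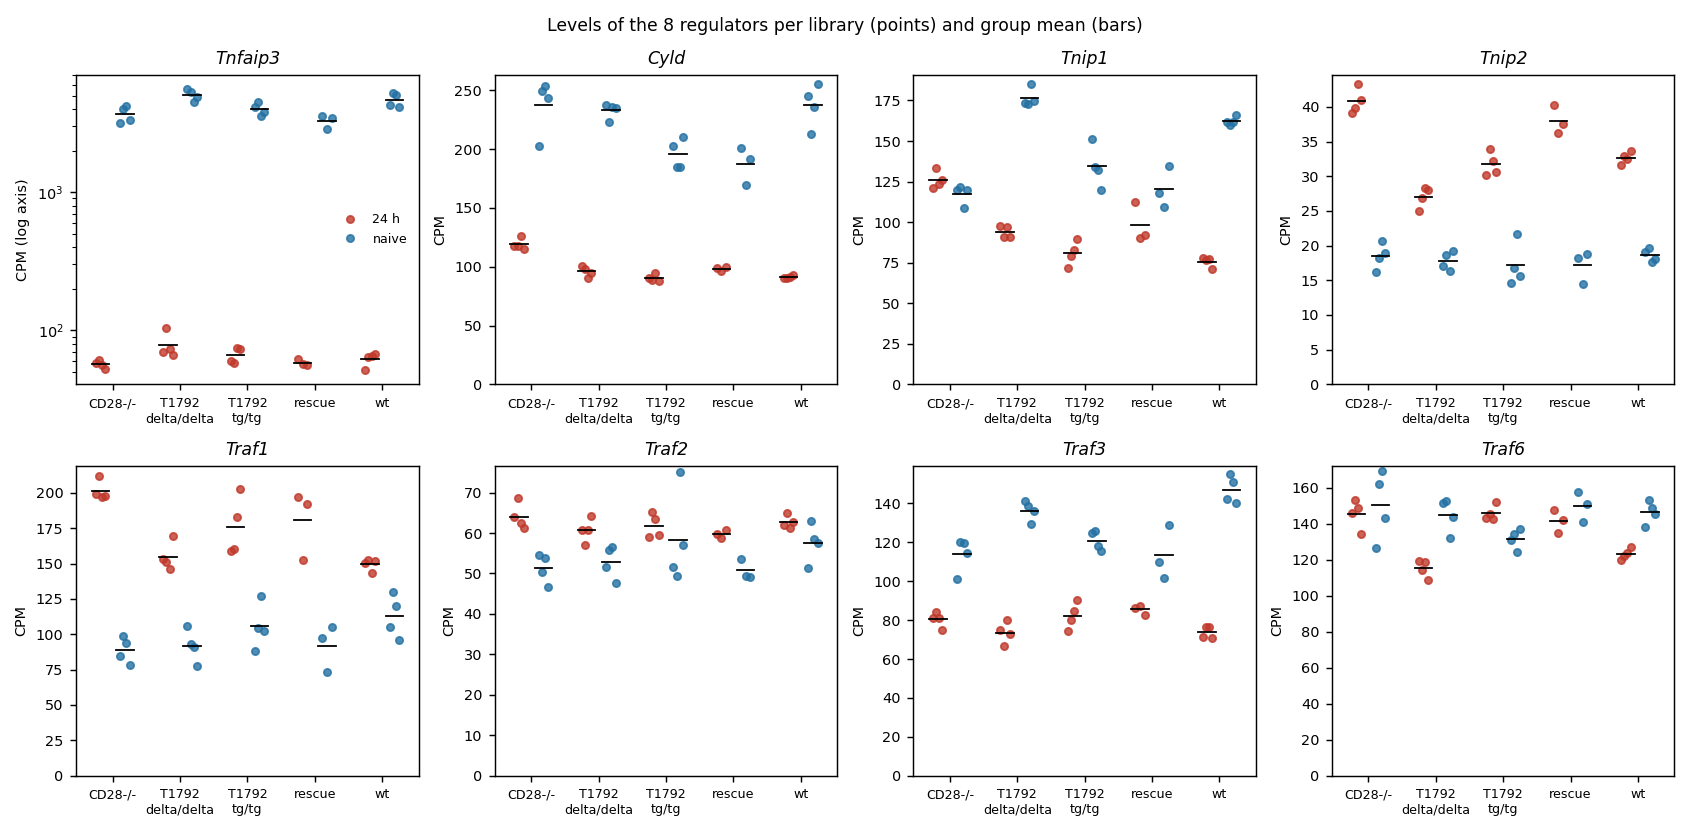
Level of each of the 8 genes in CPM for the 38 libraries (points) with the mean of each group (bars), by genotype, 24 h in red to the left of naive in blue; Tnfaip3 is on a log axis. Tnfaip3 lies between 51.5 and 105 CPM at 24 h and between 2851 and 5609 CPM in naive cells, and Traf2 and Traf6 stay within a narrow range.

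The naive levels were those of freshly isolated cells, and genes that respond to handling fell at 24 h, as Tnfaip3 did. Of 12 such genes (Fos, Jun, Egr1, Dusp1, heat shock genes and others), 11 fell and 0 rose in wt at 24 h, and their summed level was 666 to 716 CPM at 24 h and 5016 to 12642 CPM in naive wt cells. Among the naive wt libraries the 2 did not rise together: replicate 4 had the sum of 12642 CPM and the lowest Tnfaip3 of the 4, 4142 CPM. Replicate 2 had the lowest sum, 5016 CPM, and the highest Tnfaip3, 5207 CPM. Markers of other cells fell in wt as well: 8 of 8 of myeloid cells (sums of 39.0 to 44.7 CPM at 24 h and 158 to 209 CPM when naive), 8 of 8 of B cells, 5 of 7 of CD8 T and NK cells and 2 of 2 of red cells, with 0 higher in these lists. CD4 T cell markers fell too, in 5 of 6 cases with 1 higher (sums of 2393 to 2783 CPM at 24 h and 3931 to 4446 CPM when naive). Regulatory T cell markers fell in 4 of 6 cases, with 1 higher. Of all genes tested, 43.9% fell in this comparison. The part of handling and of the cells named here in the drop was not tested. The 3 genes whose 10 group means followed Tnfaip3 most closely, among 9749 others with a mean of at least 5 CPM, were Ggt1 (Pearson's r = 0.9996), Cited2 (r = 0.998) and Galnt10 (r = 0.998). Over the 38 libraries Ggt1 and Galnt10 were again among the 3 closest. These correlations rest mainly on the step between naive and 24 h, which all 10 means share.

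Stimulation moved the other 7 genes far less, and not in 1 direction. In wt at 24 h, 2 of the 8 rose and 5 fell; 85.2% of all genes tested changed in that comparison, 41.3% upwards and 43.9% downwards, so a call by itself sets none of them apart. In CD28-/- 3 rose and 3 fell, in T1792delta/delta 3 rose and 5 fell, and in T1792tg/tg and in rescue 3 rose and 4 fell, where 80.9%, 85.1%, 85.1% and 79.7% of all genes tested changed. In wt the median log2 fold change of the 8 was -0.62, against -0.06 over all genes tested. Cyld, Tnip1 and Traf3 fell by 1.38, 1.10 and 1.0 on the log2 scale in wt, Tnip2 and Traf1 rose, and Traf6 fell by 0.25. Traf2 had a log2 fold change of 0.12 ± 0.08 (SE) in wt, with an adjusted p of 0.163.

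Cyld encodes a deubiquitinase that removes K63-linked and linear chains (Entrez Gene 74256, chr8:88696878-88751946). In wt it had 90.4, 90.3, 91.6 and 92.6 CPM at 24 h, against 245, 213, 236 and 255 CPM when naive. In CD28-/- it had 118, 117, 126 and 115 CPM at 24 h, against 202, 249, 254 and 243 CPM when naive. The naive ranges of the 2 genotypes overlap, and at 24 h all 4 CD28-/- libraries lie above all 4 of wt. Cyld fell at 24 h in all 5 genotypes, with log2 fold changes from -1.38 in wt to -0.93 in rescue. The 3 genes closest to its 10 group means were Sqstm1, Ccser2 and Fam13b (r = 0.998 for each), of which Ccser2 and Fam13b were also among the 3 closest over the 38 libraries.

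Tnip1 and Tnip2 encode ABIN-1 and ABIN-2, which bind A20 and ubiquitin chains. Tnip1 (Entrez Gene 57783, chr11:54910787-54962956) had 77.8, 76.7, 77.2 and 71.2 CPM in wt at 24 h, against 162, 160, 162 and 166 CPM in naive wt cells. In CD28-/- it had 121, 133, 124 and 126 CPM at 24 h, against 120, 122, 109 and 120 CPM when naive. The wt groups lie far apart and the CD28-/- groups overlap. Tnip1 fell in 4 genotypes, with log2 fold changes of -0.91 in T1792delta/delta, -0.74 in T1792tg/tg, -0.30 in rescue and -1.10 in wt; in CD28-/- it was 0.10 ± 0.07 (SE, adjusted p = 0.196). In rescue the 24 h and naive libraries overlap, with 112, 90.5 and 91.8 CPM at 24 h, against 118, 109 and 135 CPM when naive. Tnip2 (Entrez Gene 231130, chr5:34496096-34513979) rose in all 5 genotypes, by log2 fold changes of 1.14 in CD28-/-, 0.60 in T1792delta/delta, 0.88 in T1792tg/tg, 1.15 in rescue and 0.81 in wt. It was the least abundant of the 8 per kilobase in naive wt cells, at 9.17 ± 0.47 CPM per kb (SD, n = 4).

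Of the TRAF adaptors, Traf1 rose and Traf3 fell in all 5 genotypes. Traf1 (Entrez Gene 22029, chr2:34941750-34961812), which TNF receptor family members and NF-kB itself induce and which has no ubiquitin ligase domain of its own, had 199, 212, 197 and 198 CPM in CD28-/- at 24 h, against 84.9, 98.8, 94.0 and 78.6 CPM in naive CD28-/- cells. In wt it had 151, 153, 143 and 152 CPM at 24 h, against 105, 130, 120 and 96.1 CPM when naive. The step was wider in CD28-/- at both ends, with log2 fold changes of 1.18 ± 0.11 in CD28-/- and 0.41 ± 0.11 in wt (SE). The genes closest to the 10 group means of Traf1 were Cd6, Pomt1 and Gnaq (r = 0.982, 0.976 and 0.975), and 0 of these 3 were among the 3 closest over the 38 libraries.

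Traf3 (Entrez Gene 22031, chr12:111166321-111267155) recruits the ligases that destroy the kinase NIK and so holds down the alternative NF-kB pathway. It had 71.2, 76.6, 76.7 and 70.7 CPM in wt at 24 h, against 142, 155, 151 and 140 CPM in naive wt cells. In CD28-/- it had 80.9, 84.4, 81.1 and 75.1 CPM at 24 h, against 101, 120, 120 and 114 CPM when naive. All 24 h libraries lie below the naive ones in both genotypes, and the gap is the wider in wt.

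Traf2 (Entrez Gene 22030, chr2:25517982-25546940), an adaptor of TNF receptors, and Traf6 (Entrez Gene 22034, chr2:101678420-101701668), a ubiquitin ligase used by Toll-like, interleukin-1 and antigen receptors, were the steadiest of the 8. Over the 38 libraries Traf2 ran from 46.6 to 75.2 CPM and Traf6 from 109 to 169 CPM. Traf2 rose in CD28-/- (0.32 ± 0.08, log2 fold change and SE), T1792delta/delta (0.20 ± 0.08) and rescue (0.24 ± 0.10). The calls in T1792delta/delta and rescue were lost with DESeq2 (adjusted p = 0.135 and 0.0901), with RLE scaling (0.129 and 0.0869) and with a filter of at least 5 CPM (0.387 and 0.223). That in T1792delta/delta was also lost with only the compared groups fitted (0.0591). Both were lost in some fits without 1 library (adjusted p up to 0.122). For T1792delta/delta these left out naive replicate 1 or 4 or replicate 4 at 24 h. For rescue they left out naive replicate 2 or 3 or replicate 3 at 24 h. Traf6 fell by 0.33 in T1792delta/delta and by 0.25 in wt on the log2 scale and rose by 0.15 in T1792tg/tg; the last call was lost with DESeq2 (adjusted p = 0.191) and with a filter of at least 5 CPM (adjusted p = 0.858), and without naive T1792tg/tg replicate 1 or 3 or T1792tg/tg replicate 2 or 4 at 24 h (up to 0.0942).

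**Figure D3:**
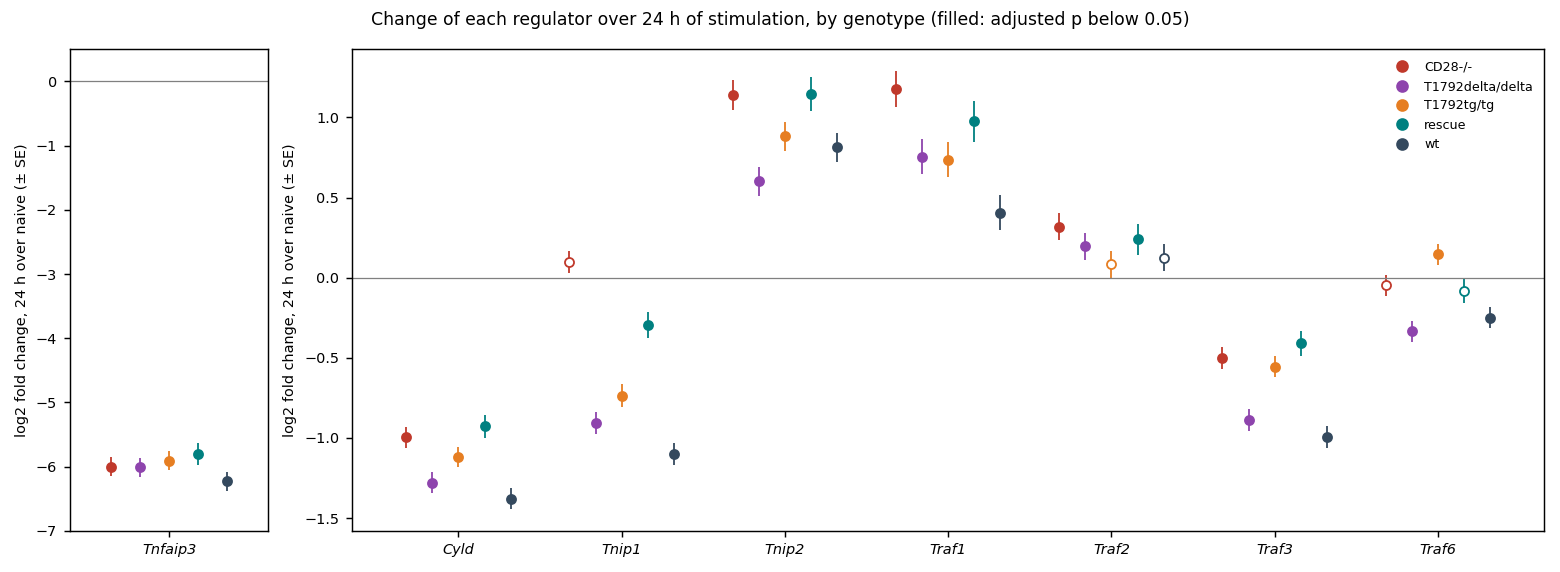
Log2 fold change of 24 h over naive cells, with its SE, for Tnfaip3 (left) and the other 7 genes (right) in each genotype; filled points have an adjusted p below 0.05. Tnfaip3 sits between -6.23 and -5.81 in all 5 genotypes, and Tnip1 spreads from -1.10 in wt to 0.10 in CD28-/-.

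The order of the 10 groups differed between the genes. For Tnfaip3, neighbours overlapped within each state and the sole gap lay between the lowest naive group, rescue with 3286 ± 382 CPM (SD, n = 3), and the highest 24 h group, T1792delta/delta with 78.7 ± 17.6 CPM (SD, n = 4). For Cyld, naive CD28-/-, wt and T1792delta/delta overlapped at 233 to 237 CPM, the naive groups with the transgene followed at 196 ± 13 CPM in T1792tg/tg and 187 ± 16 CPM in rescue, and below them stood CD28-/- at 24 h, clear of both neighbours at 119 ± 5 CPM (SD). For Tnip1 the 24 h group of CD28-/- stood among the naive ones, between T1792tg/tg and rescue. For Traf3 every naive group stood above every 24 h group, for Traf1 and Tnip2 the reverse held, and for Traf6 the libraries of neighbouring groups overlapped down to wt at 24 h.

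In naive cells labelled CD28-/-, 4 of the 8 genes were lower than in wt and 0 were higher, where 14.8% of all genes tested changed, 7.34% of them downwards as a share of those tested. Tnip1 had a log2 fold change of -0.47 ± 0.07 and Traf3 one of -0.37 ± 0.07 (SE; adjusted p = 3.04e-05 and 0.000327), and in both genes no CD28-/- library reached the lowest wt one. Tnfaip3 had a log2 fold change of -0.35 ± 0.12 (adjusted p = 0.044) and Traf1 one of -0.34 ± 0.11 (adjusted p = 0.0353), with libraries that overlap wt. Both of these calls were lost when only the 2 groups were fitted (adjusted p = 0.0818 for Tnfaip3 and 0.0573 for Traf1), that of Tnfaip3 also with a term for sex (0.0541) and with no filter on low counts (0.0574), and both without CD28-/- replicate 1 or 4 or wt replicate 2 or 3 (adjusted p up to 0.139 for Tnfaip3 and 0.14 for Traf1). Other transcripts moved with these: 8 of the 12 handling genes were lower and 0 higher in CD28-/-, with sums of 4235 to 5026 CPM against 5016 to 12642 CPM in wt, and 5 of 6 markers of regulatory T cells were lower and 1 higher, with sums of 141 to 166 CPM against 234 to 281 CPM. Their part in the result was not tested.

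At 24 h the direction was the opposite: 5 of the 8 genes were higher in CD28-/- than in wt and 0 were lower, where 51.5% of all genes tested changed, 23.7% upwards. Tnip1 had the log2 fold change of 0.73 ± 0.07 (SE, adjusted p = 1.46e-10), Traf1 0.43 ± 0.11 (0.00126), Cyld 0.38 ± 0.06 (5.05e-06), Tnip2 0.32 ± 0.09 (0.0027) and Traf6 0.24 ± 0.06 (0.00218). In all 5 every CD28-/- library lay above every wt library. How common such a gap is among all genes tested is not given here, so the gap alone sets none of the 5 apart. Tnfaip3 had -0.12 (95% interval -0.36 to 0.12), Traf2 0.03 (-0.14 to 0.19) and Traf3 0.12 (-0.01 to 0.26). Taken in either direction, 5 of 8 is close to the 51.5% of the whole table, while all 5 were upwards, where the share is 23.7%. The median of the 8, 0.28, stands beside -0.03 over all genes. The 8 were not tested as a set. Markers of other cells moved here too: 5 of 6 regulatory T cell markers were lower, with sums of 633 to 670 CPM in CD28-/- against 819 to 849 CPM in wt, and 5 of 7 CD8 T and NK cell markers were lower and 1 higher. Memory T cell markers had sums of 177 to 186 CPM in CD28-/- against 275 to 292 CPM in wt, with 1 of 7 higher and 2 lower, and of the 12 handling genes 5 were higher and 2 lower. Of 8 B cell markers 3 were higher and 0 lower, with sums of 70.1 to 104 CPM in CD28-/- against 32.3 to 83.6 CPM in wt. CD4 T cell markers were higher in 4 of 6 cases and lower in 1, with sums of 2864 to 3292 CPM in CD28-/- against 2393 to 2783 CPM in wt. The regulatory T cell sums at 24 h, here and below, include Il2ra, which reached up to 941 CPM. In wt these sums were 234 to 281 CPM when naive and 819 to 849 CPM at 24 h, while 1 of the 6 markers rose and 4 fell. At 24 h the sum therefore need not follow the number of regulatory T cells. The part of the cells named here in the result was not tested.

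Put as a difference of responses, 24 h over naive in CD28-/- minus that in wt, 5 of the 8 genes differed, all with a positive sign, where 43.3% of all genes tested did, 20.8% with a positive sign. Tnip1 had the largest difference of the 8, 1.2 ± 0.10 (log2, SE; adjusted p = 1.96e-11): it fell in wt and did not pass the test in CD28-/-. Traf1 followed with 0.77 ± 0.16 (adjusted p = 0.00013), Traf3 with 0.49 ± 0.10 (7.67e-05), Cyld with 0.38 ± 0.09 (0.000688) and Tnip2 with 0.33 ± 0.13 (0.0368). The call for Tnip2 was lost in 8 of the 16 fits that left out 1 library, namely naive CD28-/- replicate 1 or 2, naive wt replicate 1 or 2, CD28-/- replicate 3 or 4 at 24 h, or wt replicate 1 or 3 at 24 h (adjusted p from 0.0519 to 0.0938), and with no filter on low counts (0.0678). For Tnip1, Traf3 and Traf1 the naive level in CD28-/- was lower than in wt, so the difference holds a lower start. That naive call of Traf1 was lost in 4 of the 8 fits that left out 1 library. Tnip1 and Traf1 were also higher in CD28-/- at 24 h. Traf3, at -0.37 in naive cells and 0.12 at 24 h, did not pass the test at 24 h.

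**Figure D4:**
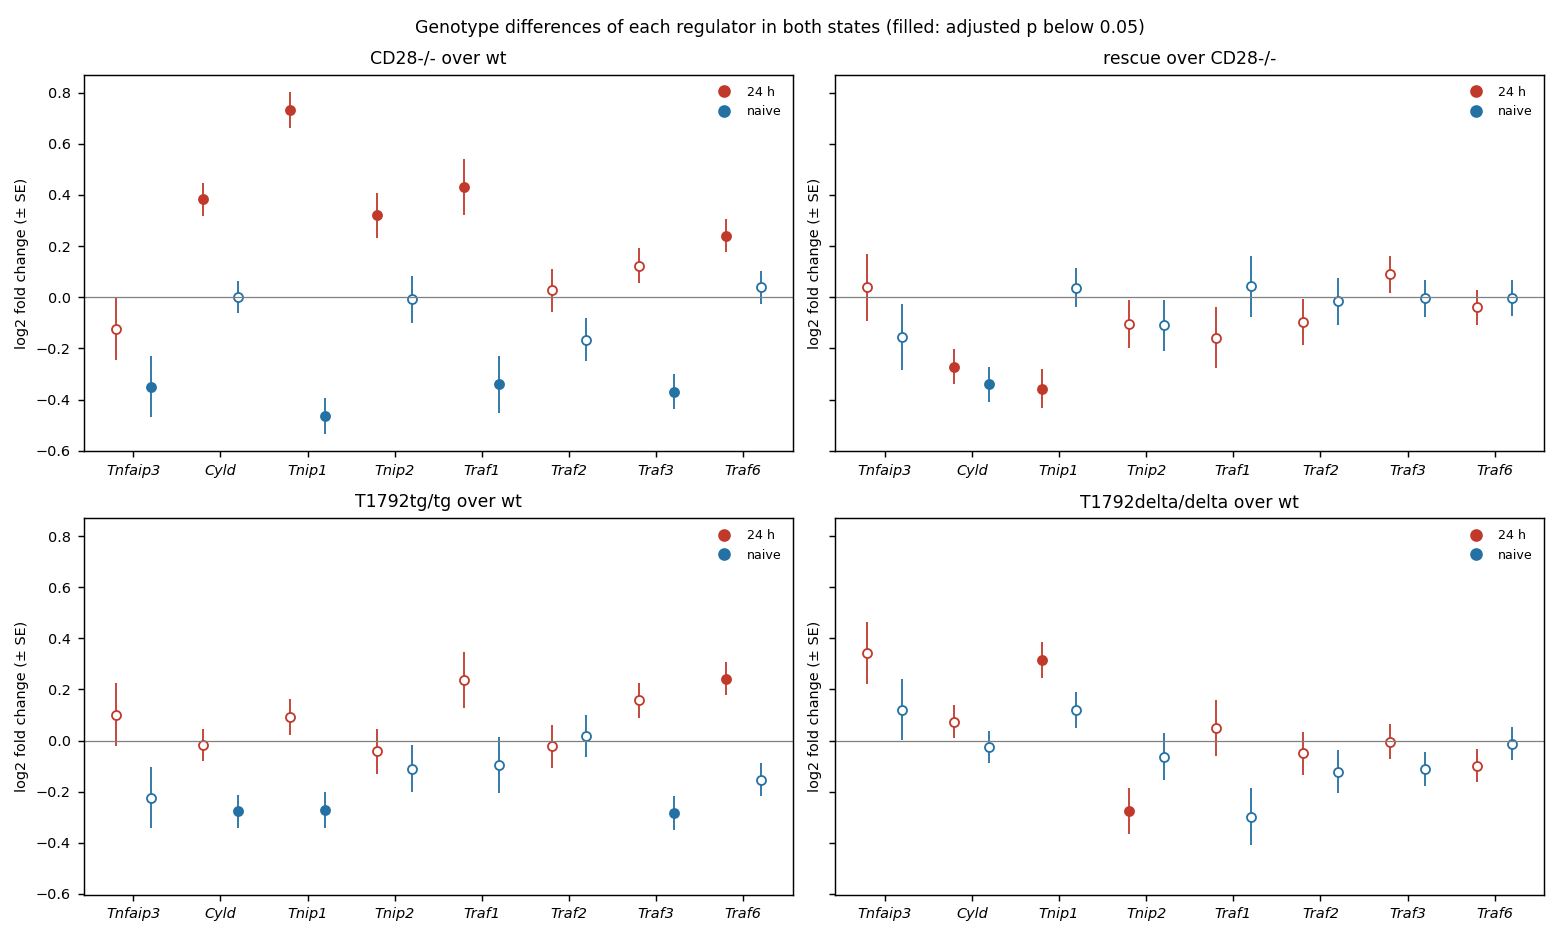
Log2 fold change with its SE for each gene between genotypes, at 24 h (red) and in naive cells (blue), for CD28-/- over wt, rescue over CD28-/-, T1792tg/tg over wt and T1792delta/delta over wt; filled points have an adjusted p below 0.05. In CD28-/- over wt the called points lie above 0 at 24 h and below 0 in naive cells, with Tnip1 at 0.73 and -0.47.

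The transgene was set against its own background in 2 comparisons that share no libraries, T1792tg/tg with wt and rescue with CD28-/-. In naive cells Cyld was lower with the transgene in both. It had 202, 185, 185 and 210 CPM in T1792tg/tg, against 245, 213, 236 and 255 CPM in wt, a log2 fold change of -0.28 ± 0.06 (SE, adjusted p = 0.00146). It had 201, 170 and 191 CPM in rescue, against 202, 249, 254 and 243 CPM in CD28-/-, a log2 fold change of -0.34 ± 0.07 (SE, adjusted p = 0.0006). The groups do not overlap in either, although rescue replicate 1 and CD28-/- replicate 1 nearly meet. The second call was lost when only rescue and CD28-/- were fitted (adjusted p = 0.0712), and in the other alternatives tried it held. Both backgrounds show a change in 23.1% and 16.8% of all genes tested, downwards in 12.6% and 8.92%.

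Tnip1 and Traf3 were lower in naive T1792tg/tg cells as well. Tnip1 had 151, 134, 132 and 120 CPM in T1792tg/tg, against 162, 160, 162 and 166 CPM in wt, a log2 fold change of -0.27 ± 0.07 (adjusted p = 0.00452). Traf3 had 125, 126, 118 and 115 CPM in T1792tg/tg, against 142, 155, 151 and 140 CPM in wt, a log2 fold change of -0.28 ± 0.07 (adjusted p = 0.00229). Neither group overlaps wt. In rescue against CD28-/-, where both start lower, Tnip1 had 0.04 (95% interval -0.11 to 0.19) and Traf3 -0.00 (-0.15 to 0.14). Memory T cell markers were higher in 5 of 7 cases and lower in 0 in naive T1792tg/tg, with sums of 318 to 381 CPM against 232 to 251 CPM in wt. CD8 T and NK cell markers were higher in 3 of 7 cases (sums of 101 to 166 CPM against 89.9 to 93.9 CPM) and regulatory T cell markers in 3 of 6 (267 to 411 CPM against 234 to 281 CPM), with 0 lower in both. In naive rescue against CD28-/-, 2 regulatory T cell, 2 memory and 2 CD8 T and NK cell markers were higher and 0 lower in these lists. The part of these cells was not tested.

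At 24 h the transgene comparisons differed by background for Tnip1. It had 112, 90.5 and 91.8 CPM in rescue, against 121, 133, 124 and 126 CPM in CD28-/-, a log2 fold change of -0.36 ± 0.08 (SE, adjusted p = 0.000881). It had 71.9, 78.9, 82.6 and 89.4 CPM in T1792tg/tg, against 77.8, 76.7, 77.2 and 71.2 CPM in wt, a log2 fold change of 0.09 ± 0.07 (adjusted p = 0.45). The rescue libraries all lie below those of CD28-/-, and T1792tg/tg overlaps wt. The difference between these 2 effects was -0.45 ± 0.10 (adjusted p = 0.0134), in a comparison where 2.11% of all genes tested changed; without rescue replicate 2 it was -0.39 (adjusted p = 0.0851) and without rescue replicate 3 it was -0.40 (adjusted p = 0.0757). As a difference of responses, rescue minus CD28-/-, Tnip1 had -0.39 (adjusted p = 0.0133), where 12.8% of all genes tested differed; the call was lost without naive rescue replicate 3 or rescue replicate 2 or 3 at 24 h (adjusted p up to 0.0641).

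Cyld was the other gene lower in rescue than in CD28-/- at 24 h, where 18.4% of all genes tested changed, 8.86% downwards. It had 99.0, 96.7 and 99.8 CPM in rescue, against 118, 117, 126 and 115 CPM in CD28-/-, a log2 fold change of -0.27 ± 0.07 (SE, adjusted p = 0.00447). The groups do not overlap. In this comparison, which also holds the lower Tnip1, 3 of 6 regulatory T cell markers were higher and 1 lower (sums of 1009 to 1037 CPM in rescue against 633 to 670 CPM in CD28-/-). Of 7 memory markers 4 were higher and 1 lower (230 to 279 CPM against 177 to 186 CPM). Of 6 CD4 T cell markers 1 was higher and 3 lower (2547 to 2890 CPM against 2864 to 3292 CPM). The 12 handling genes gave 2 higher and 4 lower. The part of all these was not tested. In T1792tg/tg against wt at 24 h Cyld had -0.02 (95% interval -0.14 to 0.11), and the difference between the 2 effects, -0.25 ± 0.09, did not pass the test (adjusted p = 0.167). Against wt, rescue at 24 h had a log2 fold change of 0.11 for Cyld (95% interval -0.02 to 0.25) and 0.37 ± 0.08 for Tnip1 (adjusted p = 0.000223), in a comparison where 35.1% of all genes tested changed, 17.4% upwards. Traf3 and Traf6 were also higher in rescue than in wt at 24 h, by log2 fold changes of 0.21 and 0.20 (adjusted p = 0.0216 and 0.0237), and the call for Traf3 was lost without rescue replicate 1 or 2 or wt replicate 1 or 4 (adjusted p up to 0.0746), that for Traf6 without rescue replicate 1 or 3 or wt replicate 1 (up to 0.126).

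Traf6 was the gene of the 8 that differed between T1792tg/tg and wt at 24 h. It had 143, 145, 143 and 152 CPM in T1792tg/tg, against 120, 122, 124 and 127 CPM in wt, a log2 fold change of 0.24 ± 0.06 (SE, adjusted p = 0.0111). All 4 transgenic libraries lie above all 4 of wt, in a comparison where 12.5% of all genes tested changed. Memory T cell markers were higher in 5 of 7 cases here (sums of 405 to 432 CPM in T1792tg/tg against 275 to 292 CPM in wt), regulatory T cell markers in 2 of 6 (1066 to 1134 CPM against 819 to 849 CPM) and CD8 T and NK cell markers in 3 of 7, with 0 lower in these lists; their part was not tested. As a difference of responses, T1792tg/tg minus wt, Traf3 had 0.44 ± 0.10 (adjusted p = 0.00182), Traf6 0.39 ± 0.09 (0.00328), Tnip1 0.36 ± 0.10 (0.0114) and Cyld 0.26 ± 0.09 (0.0428), where 16.0% of all genes tested differed, 8.59% with a positive sign. For Traf3, Tnip1 and Cyld the naive levels were lower in T1792tg/tg and the levels at 24 h did not differ beyond the test. The call for Cyld was lost in 12 of the 16 fits that left out 1 library (adjusted p from 0.0541 to 0.0943); it was also lost with no filter on low counts (0.0707) and with the replicate number as a block within genotype (0.0663). It held without naive T1792tg/tg replicate 1 or 4, naive wt replicate 2 or T1792tg/tg replicate 2 at 24 h.

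In naive rescue cells, Tnfaip3, Cyld, Tnip1 and Traf3 were lower than in wt, with log2 fold changes of -0.51 ± 0.13, -0.34 ± 0.07, -0.43 ± 0.08 and -0.37 ± 0.07 (SE), where 26.1% of all genes tested changed, 13.6% downwards. Tnfaip3 had 3571, 2851 and 3435 CPM in rescue, against 4263, 5207, 5046 and 4142 CPM in wt (adjusted p = 0.00385); without rescue replicate 2 the adjusted p was 0.0513. Handling genes were lower in 8 of 12 cases in this comparison too, 5 of 6 regulatory T cell markers were lower and 1 higher (sums of 186 to 212 CPM in rescue against 234 to 281 CPM in wt), and 3 of 7 memory markers were higher and 0 lower (286 to 368 CPM against 232 to 251 CPM). Their part was not tested.

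T1792delta/delta, the cells without the cluster, was compared with wt in both states. The calls among the 8 genes are near the shares of all genes tested given below, so their number does not set the 8 apart. In naive cells labelled T1792delta/delta 0 of 8 passed the test, where 5.19% of all genes tested did; Traf1 alone had an unadjusted p below 0.05 (0.0109), with a log2 fold change of -0.30, and DESeq2 called 0 as well. Cyld, with its 3 matches, had a log2 fold change of -0.03 in naive cells (95% interval -0.15 to 0.10) and of 0.07 at 24 h (-0.05 to 0.20). At 24 h, where 16.2% of all genes tested changed, Tnip1 was higher: it had 97.7, 91.1, 96.8 and 90.9 CPM in T1792delta/delta, against 77.8, 76.7, 77.2 and 71.2 CPM in wt, a log2 fold change of 0.31 ± 0.07 (SE, adjusted p = 0.00228). These groups do not overlap. Regulatory T cell markers were lower in 2 of 6 cases (sums of 562 to 623 CPM in T1792delta/delta against 819 to 849 CPM in wt) and memory markers in 3 of 7, with 0 higher in both, and their part was not tested. Tnip2 was lower, with 25.0, 26.9, 28.3 and 28.0 CPM in T1792delta/delta, against 31.6, 32.9, 32.5 and 33.7 CPM in wt, a log2 fold change of -0.27 ± 0.09 (adjusted p = 0.0303). That call was lost without T1792delta/delta replicate 1 or 2 or wt replicate 2, 3 or 4 (adjusted p from 0.0548 to 0.111). Tnfaip3 had 69.9, 105, 73.2 and 66.8 CPM in T1792delta/delta, against 51.5, 64.2, 65.3 and 67.4 CPM in wt. Its log2 fold change of 0.34 ± 0.12 missed the threshold at an adjusted p of 0.0505. It passed with DESeq2 (0.0272) and without T1792delta/delta replicate 1 or 4 (0.0474 and 0.0244). Over the 15 alternatives the log2 fold change ran from 0.17 to 0.41, and 5 of them passed. Without 1 library the adjusted p reached 0.345. The response differed from that in wt in 0 of 8 genes, where 6.10% of all genes tested did; by unadjusted p below 0.05 it differed in Traf1 (0.0319), and DESeq2 called 0.

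Around these 8 genes, 79 others of the pathway were looked at in 7 lists. In wt at 24 h, 27 of the 79 rose and 42 fell, beside 85.2% of all genes tested that changed. The 5 NF-kB subunits mostly rose, 3 up and 1 down: Nfkb2 had a log2 fold change of 1.67 and Nfkb1 of 1.19. The 7 inhibitor of kB genes gave 3 up and 4 down, with Nfkbiz at -3.14 and Nfkbia at -1.21, and the 11 genes of the IKK and TAK1 kinases gave 2 up and 7 down, with Ikbke at -2.79 and Map3k14, the kinase NIK that TRAF3 restrains, at -1.31. Among 16 TRAF-binding receptors and ligands 9 rose and 6 fell, and Tnfrsf4, the receptor OX40, had 4.47.

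In naive CD28-/- cells, 2 of the 79 were higher than in wt and 20 lower, beside 14.8% of all genes tested that changed and 7.34% that were lower. Of the NF-kB subunits 4 of 5 were lower, Relb with a log2 fold change of -0.46 and Nfkb1 with -0.32, and of the inhibitor of kB genes 5 of 7, Nfkbid with -1.24. Tnfrsf4 and Tnf, which encodes the cytokine TNF, had -0.93 and -0.94. At 24 h, 32 of the 79 were higher in CD28-/- and 21 lower, beside 51.5% of all genes tested that changed and 23.7% that were higher. Ikbke had 1.32, Traf3ip3 1.31, Peli1 0.75 and N4bp1 0.76, while Nfkbid had -1.0.

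With the transgene, 7 of the 79 were higher and 17 lower in naive T1792tg/tg than in wt, and 13 were higher and 8 lower at 24 h, beside 23.1% and 12.5% of all genes tested that changed. In naive cells Traf5, another TRAF adaptor, had a log2 fold change of -0.62, Cd40lg -0.74, Map3k14 -0.41 and Nfkbia 0.39. At 24 h Nfkb1 had 0.54 and Nfkb2 0.29, and the ligand genes Lta and Tnfsf8 had 0.97 and 0.63.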

How the data were processed

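Per the labels' protocols, polyA RNA of CD4+ T cells was made into stranded TruSeq libraries and read as single ends on an Illumina instrument. Per the submitters' processing notes, reads on build mm10 involved STAR 2.5.2a, with FastQC 0.11.5 and, in R 3.5, edgeR 3.24.3 also named; the counting tool is not given in the sources used here. The authors deposited 1 table of whole-number counts per gene, not normalized, with no sample pooled and a gene length per row; these counts were used as deposited. Of 24028 Entrez Gene numbers, 23968 matched RefSeq's GRCm38.p6 table, and the rest held 0.0749% of counts. In GENCODE M21, 0 other genes overlap an exon of the 8 genes.

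Counts were scaled by TMM and filtered with filterByExpr over the 10 groups, and fitted with edgeR 4.0.16 in R 4.3.3, 1 coefficient per group over all 38 libraries. The 20 comparisons were tested two-sided by the quasi-likelihood test, each adjusted by Benjamini-Hochberg over 13650 genes and not over comparisons; SE is the log2 fold change over the root of F, and intervals are 1.96 SE either way. The fit was tested on simulated data; the limit it had to pass was lowered after its first result was seen. Levels are CPM with TMM scaling, per kilobase of the deposited length where genes are compared. Alternatives were RLE scaling, DESeq2 1.42.0, other filters, the compared groups only, replicate blocks, a sex term from Xist, and leaving out each library.

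The members, lists and named genes (the 8; Cd28, Mir17hg and Il2; up to 2 called genes per list and comparison with the smallest p; the 3 genes most like Tnfaip3, Cyld and Traf1) were chosen with earlier results of these data known. The counts over all 79 pathway genes include 1 list that is not reported here. The kappa-B pattern, and the 20% either way that defines a like-length region, were set after the files had been seen. Whether libraries with the same number in both states come from 1 mouse is not stated. Over 19 such pairs the correlation of deviations from the group means ran from -0.09 to 0.55 and was above 0.1 in 14, among them all 4 pairs of wt and all 4 of T1792delta/delta, and Xist was present or absent in both libraries of every pair, also in the 12 pairs of genotypes that hold both kinds. Most pairs thus deviate alike, but the labels tie no number to a mouse, and the fit has no block. If pairs share a mouse, the main p-values of stimulation and of responses leave that pairing out. Blocked fits are alternatives. The mice are separate within a group; p-values measure the spread between them.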

Additional observations from a re-analysis of the deposited data

Results flagged for a closer look

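In 6 of the 64 groups of 4 libraries looked at for the 8 genes, 1 library stood far from the other 3; chance does so in about 1 group in 20. Tnfaip3 had 105 CPM in T1792delta/delta replicate 2 at 24 h, against 66.8 to 73.2 CPM in the other 3. Cyld had 223 CPM in naive T1792delta/delta replicate 2, against 235 to 238 CPM. Tnip1 had 109 CPM in naive CD28-/- replicate 3, against 120 to 122 CPM, 185 CPM in naive T1792delta/delta replicate 3, against 173 to 174 CPM, and 71.2 CPM in wt replicate 4 at 24 h, against 76.7 to 77.8 CPM. Traf1 had 212 CPM in CD28-/- replicate 2 at 24 h, against 197 to 199 CPM.

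The response to 24 h of culture differed between genotypes, by a test of the difference itself, in 10 cases on the log2 scale. For CD28-/- minus wt these were Tnip1 at 1.2, Traf1 at 0.77, Traf3 at 0.49, Cyld at 0.38 and Tnip2 at 0.33. For T1792tg/tg minus wt they were Traf3 at 0.44, Traf6 at 0.39, Tnip1 at 0.36 and Cyld at 0.26, and both sets share the wt libraries. For rescue minus CD28-/- it was Tnip1 at -0.39. The effect of the transgene at 24 h, on the CD28-/- background minus that on the wt background, differed for Tnip1, at -0.45.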

How the results depend on the processing

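Of 1192 differences of single members recomputed under other settings, 1150 kept their direction and their side of the threshold, 19 lost a call, 18 gained one and 5 changed sign. Of 1528 recomputed without 1 library, 1437 kept both, 56 lost a call, 11 gained one and 24 changed sign. A sign change was counted only where neither value rounded to 0.00. All sign changes so counted were in differences that passed no test under either setting.

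With only the compared groups fitted, the number of the 8 genes called was 2 in place of 4 for naive CD28-/- against wt, 0 in place of 1 for naive rescue against CD28-/-, 2 in place of 1 for T1792tg/tg against wt at 24 h, 6 in place of 3 for rescue against wt at 24 h (5 with a filter of 5 CPM), and 4 in place of 1 for the transgene effect between backgrounds. Without 1 library it ran from 2 to 4 for naive CD28-/- against wt, 1 to 3 for T1792delta/delta and for rescue against wt at 24 h, and 0 to 1 for the rescue response and the transgene effect. With only the compared groups, genes called over the table were 956 in place of 2015 for naive CD28-/- against wt, 1913 in place of 3158 for naive T1792tg/tg against wt, 802 in place of 2288 for naive rescue against CD28-/-, 1846 in place of 3566 for naive rescue against wt, 2631 in place of 1713 for T1792tg/tg against wt at 24 h, 3851 in place of 2510 for rescue against CD28-/- at 24 h, and 929 in place of 288 for the transgene effect (518 with DESeq2). Without 1 library they ran from 1170 to 2188, 2415 to 3033, 1600 to 3034, 2105 to 4066, 962 to 1710, 1300 to 2561 and 119 to 447 in the same order, from 439 to 786 for naive T1792delta/delta against wt, 1388 to 2278 at 24 h, 443 to 1007 for its response and 1000 to 2152 for the rescue response. The cause was not tested.

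Differences whose main value rounds to 0.00 are left out of the lists that follow. Over all alternatives these ran from -0.05 to 0.07 for Cyld in naive CD28-/- against wt and -0.05 to 0.04 for Traf3 in T1792delta/delta against wt at 24 h. In naive rescue against CD28-/- they ran from -0.11 to 0.07 for Traf3 and -0.08 to 0.06 for Traf6. Sign changes with a filter of 5 CPM were -0.05 for Traf2 on stimulation in T1792tg/tg, 0.01 for Traf6 in naive T1792delta/delta against wt, 0.01 for Traf2 in naive rescue against CD28-/- and -0.02 for the Tnip2 response in rescue against CD28-/- (-0.01 with the compared groups only). Without 1 library, ranges that crossed 0 were -0.12 to 0.01 for Traf6 on stimulation in CD28-/-; in naive CD28-/- against wt -0.06 to 0.05 for Tnip2 and -0.02 to 0.11 for Traf6; in naive T1792delta/delta against wt -0.04 to 0.03 for Traf6 and -0.07 to 0.01 for Cyld; -0.12 to 0.09 for Traf2 in naive T1792tg/tg against wt; in naive rescue against CD28-/- -0.06 to 0.01 for Traf2, -0.06 to 0.18 for Traf1 and -0.05 to 0.10 for Tnip1; -0.01 to 0.05 for Traf2 in CD28-/- against wt at 24 h; -0.11 to 0.11 for the Traf2 response in T1792tg/tg against wt; -0.10 to 0.08 for Tnip2 and -0.10 to 0.04 for Traf6 in the response of rescue against CD28-/-; and -0.12 to 0.02 for the transgene effect on Tnfaip3.

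With the replicate number as a block within genotype, 3 of the 8 responses differed for T1792tg/tg against wt in place of 4, with Cyld at an adjusted p of 0.0663, and in wt 7 of the 8 genes changed on stimulation, as without it; the block changed no other count of members called. Each library correlated best with its own number in the other state in 11 of 19 pairs. All 8 genes were at 14.5 CPM or above in all 38 libraries; how far depth limits these comparisons was not tested.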
